A study of Arabidopsis thaliana with 15 samples.

Results

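UDP-glycosyltransferases are enzymes that move a sugar from a UDP-sugar donor onto another molecule, and this account describes their transcripts in Arabidopsis thaliana seedlings after abscisic acid (ABA) treatment and after dehydration. A row of the deposited gene tables was taken as a member where its annotation named a UDP-glycosyltransferase, a UDP-glucosyl transferase or a UDP-glucosyltransferase. The wording matched 123 rows, and the ABA glucosyltransferases UGT71C5 and UGT71B6 were left out by the same rule, so 121 members remained of 22526 rows. Of these, 103 carried the UDP-glucuronosyl/UDP-glucosyltransferase domain in the RefSeq annotation, and the other 18 were glycosyltransferases of other kinds, such as the starch synthase GBSS1, that the annotation words also cover. A gene symbol stood in the table for 56 members, and members without a symbol there or in RefSeq are given by their locus code.

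The 5 conditions were 20 µM ABA in liquid medium for 1 h, the same ABA treatment for 3 h, dehydration on filter paper for 1 h, dehydration for 3 h, and an untreated control. Every condition used whole wild-type seedlings of the Columbia (Col-0) ecotype at 14 days, moved from solid to liquid medium a day earlier. The control seedlings were harvested before the treatments began, so the control is neither matched in time nor mock-treated with the methanol in which ABA was dissolved, and handling and elapsed time cannot be told apart from the treatments. Strand-specific poly(A) RNA libraries were made from 3 biological replicates per condition, 15 in all, and the tables give 1 combined column per condition. The submitters asked how these stresses alter the choice of poly(A) site, and gene levels are described here.

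With no separate replicate columns, no difference could be tested against the spread between replicates and no p-value is given. Levels are CPM, read counts scaled to a common library size, after TMM scaling, a correction for differences in library composition. Ratios are log2 values with exact 95% intervals that allow for counting error alone, and a member is called higher or lower where its ratio reached 2-fold. A member counts as measured where its mean over the 5 conditions was at least 1 CPM. This held for 104 members, and 17 lay below it. The mean includes the treated columns, so some members under 1 CPM in the control passed only through columns where they were high. AT2G22590, UGT76E1, AT1G10400, UGT84A1, AT4G27570 and AT3G29630 are such members, and they add to the counts of higher members. AT2G22590, UGT84A1 and AT4G27570 are also among the members described below as higher in all 4 treatments. The same limit was applied to all genes.

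Plant UDP-glycosyltransferases of this family attach glucose, or less often rhamnose or another sugar, to hormones, flavonols, anthocyanidins, lignin precursors, sinapate, sterols and foreign compounds. The sugar makes the acceptor more soluble and usually less active, and conjugates can be stored in the vacuole. Because ABA, auxin, cytokinin, salicylate and jasmonate are all glucosylated by such enzymes, the family belongs to the machinery that sets the pool of free hormone. Flavonol glycosides, another group of products, are known as screens against light in leaves.

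Combined depth was between 163762670 and 204315702 reads per condition. Leaf markers (4 of 5 listed were in the table, none at 0) summed to 7008 to 10161 CPM in the treated columns, against 15358 CPM in the control. Root markers (7, none at 0) summed to 70.2 to 115 CPM in the treated columns, against 128 CPM in the control. The 4 seed markers stayed between 0.195 and 2.92 CPM in the treated columns, against 0.124 CPM in the control, with 1 of them at 0 after dehydration for 1 h. The summed leaf and root markers thus stood lower in every treatment, and their part in the results that follow was not tested. Not every single root marker was lower in each treatment, as SHR was 1.05-fold the control at ABA 1 h and COBL9 1.06-fold at ABA 3 h. In RNA from whole seedlings, fewer cells of a type and less RNA per cell cannot be told apart.

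A larger share of members than of all measured genes was at least 2-fold higher in each of the 4 treatments, and at 1 h a larger share was also at least 2-fold lower. After ABA for 1 h, 13 of 104 measured members were at least 2-fold higher, beside 4.54% of all measured genes, and 11 were at least 2-fold lower, beside 5.13%. After ABA for 3 h, 26 were higher, beside 9.12% of measured genes, and 10 were lower (9.62%, beside 7.79%). The share of lower members at ABA 3 h is therefore near that of all measured genes.

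After dehydration for 1 h, 19 members were higher (18.3%, beside 7.73% of measured genes) and 13 were lower (12.5%, beside 5.62%). After dehydration for 3 h, 24 were higher (23.1%, beside 10.5%) and 9 were lower (8.65%, beside 6.49%), again near the share of all measured genes. The 4 comparisons share the control column, so their counts are not independent of each other. Median log2 ratios of the measured members were 0.03 and 0.15 after ABA for 1 h and 3 h and 0.18 and 0.09 after dehydration for 1 h and 3 h, beside 0.02, 0.01, -0.01 and -0.02 for all measured genes. The middle of the family therefore hardly left the control level, and the counts came from its tails.

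**Figure D1:**
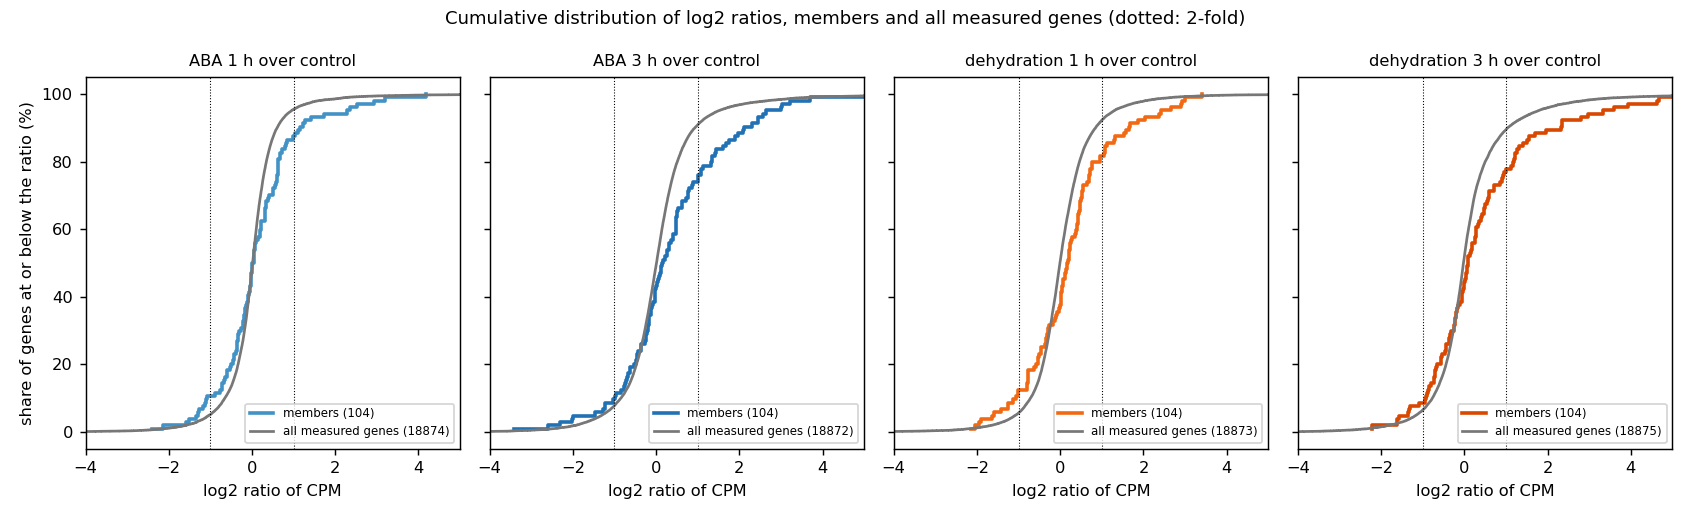
Cumulative share of genes (%) at or below each log2 ratio of CPM over the control, for measured members (coloured) and all measured genes (grey), 1 panel per treatment, with the axis ending at 5. The members' curves lie above the grey curve on the left and below it on the right, most clearly in the right tail, and 26 members lie beyond the right dotted 2-fold line after ABA for 3 h.

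Over the 4 comparisons with the control, 45 measured members never reached 2-fold and 59 did at least once. Of those, 8 were higher in all 4 treatments, 1 was lower in all 4, and 4 were higher in some and lower in others. At 3 h, 14 members were higher after both ABA and dehydration, 12 were higher after ABA and within 2-fold after dehydration, and 9 were higher after dehydration and within 2-fold after ABA. No share over all measured genes stands beside these patterns, so they are not read as a trait of the members.

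**Figure D2:**
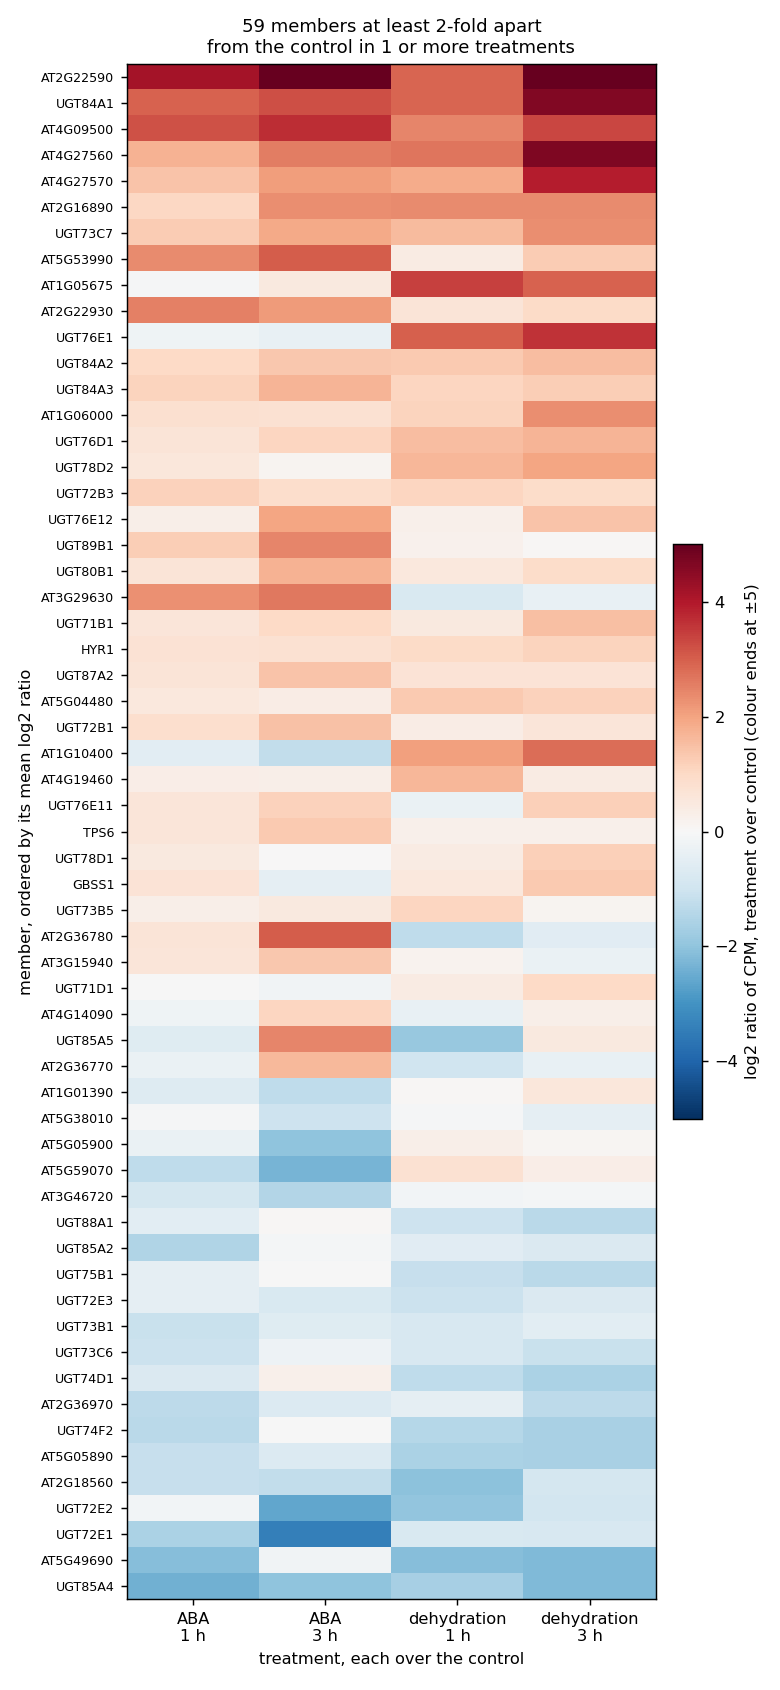
Log2 ratio of CPM over the control (colour, red higher and blue lower) for the 59 members at least 2-fold apart in 1 or more treatments, which are the 4 columns. The 8 members higher in all 4 treatments lie in the upper part, UGT85A4, lower in all 4, is the bottom row, and rows in the middle such as AT2G36780 and AT1G10400 change colour between ABA and dehydration.

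The 8 members higher in all 4 treatments were AT2G16890, AT2G22590, UGT73C7, AT4G09500, UGT84A1, UGT84A3, AT4G27560 and AT4G27570. AT4G27560 had 44.7 CPM after ABA for 1 h, 79.5 CPM after ABA for 3 h, 85.1 CPM after dehydration for 1 h and 341 CPM after dehydration for 3 h, against 13.4 CPM in the control. All 4 treated values lay above the control, and the value at dehydration 3 h stood apart from the rest at 25.4-fold (log2 4.67, interval 4.61 to 4.73). Its neighbour AT4G27570 was likewise highest after dehydration for 3 h, at much lower levels, with 1.09, 1.73, 1.48 and 6.19 CPM in the 4 treatments, against 0.407 CPM in the control. The coding sequences of this pair were 96.0% identical, so reads could have been split between them and each value is uncertain to that extent.

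AT4G09500 had 75.1 and 107 CPM after ABA for 1 h and 3 h and 44.1 and 82.5 CPM after dehydration for 1 h and 3 h, against 8.22 CPM in the control. It was 13.1-fold higher after ABA for 3 h (log2 3.71, interval 3.63 to 3.79) and 10.03-fold higher after dehydration for 3 h. Its closest relative by coding sequence, AT2G22930 (89.9% identical), reached the 2-fold limit after ABA and not after dehydration, at 5.94 and 4.50 CPM after ABA for 1 h and 3 h and 1.62 and 2.01 CPM after dehydration for 1 h and 3 h, against 1.03 CPM in the control. The ratio of AT2G22930 at dehydration 3 h, 1.94-fold, lay just under that limit.

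UGT84A1, annotated as a possible sinapate glucosyltransferase, had 5.18 and 6.28 CPM after ABA for 1 h and 3 h and 5.13 and 16.8 CPM after dehydration for 1 h and 3 h, against 0.678 CPM in the control. That is 24.8-fold higher after dehydration for 3 h (log2 4.63, interval 4.37 to 4.91), while the other 3 treatments lay between 7.57-fold and 9.26-fold. UGT84A3, its neighbour, varied less, with 104, 154, 101 and 112 CPM in the same order, against 48.2 CPM in the control.

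AT2G22590 had the highest ratio of the family, though from a control count of only 7 reads. It stood at 0.714 and 8.27 CPM after ABA for 1 h and 3 h and at 0.295 and 1.69 CPM after dehydration for 1 h and 3 h, against 0.0396 CPM in the control. The log2 ratio at ABA 3 h was 7.71 with an interval from 6.66 to 9.02, so the fold itself is known only roughly. AT2G16890 reached nearly the same level in 3 treatments, with 7.54 CPM after ABA for 1 h and 18.4 CPM after ABA for 3 h, and 19.2 and 18.9 CPM after dehydration for 1 h and 3 h, against 3.70 CPM in the control. UGT73C7 ranged from 3.08 to 6.32 CPM in the treatments, against 1.27 CPM in the control.

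UGT85A4 was the member lower in all 4 treatments. It had 6.71 and 8.76 CPM after ABA for 1 h and 3 h and 11.4 and 7.65 CPM after dehydration for 1 h and 3 h, against 35.5 CPM in the control. Its ratios ran from 3.13-fold lower after dehydration for 1 h to 5.30-fold lower after ABA for 1 h.

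**Figure D3:**
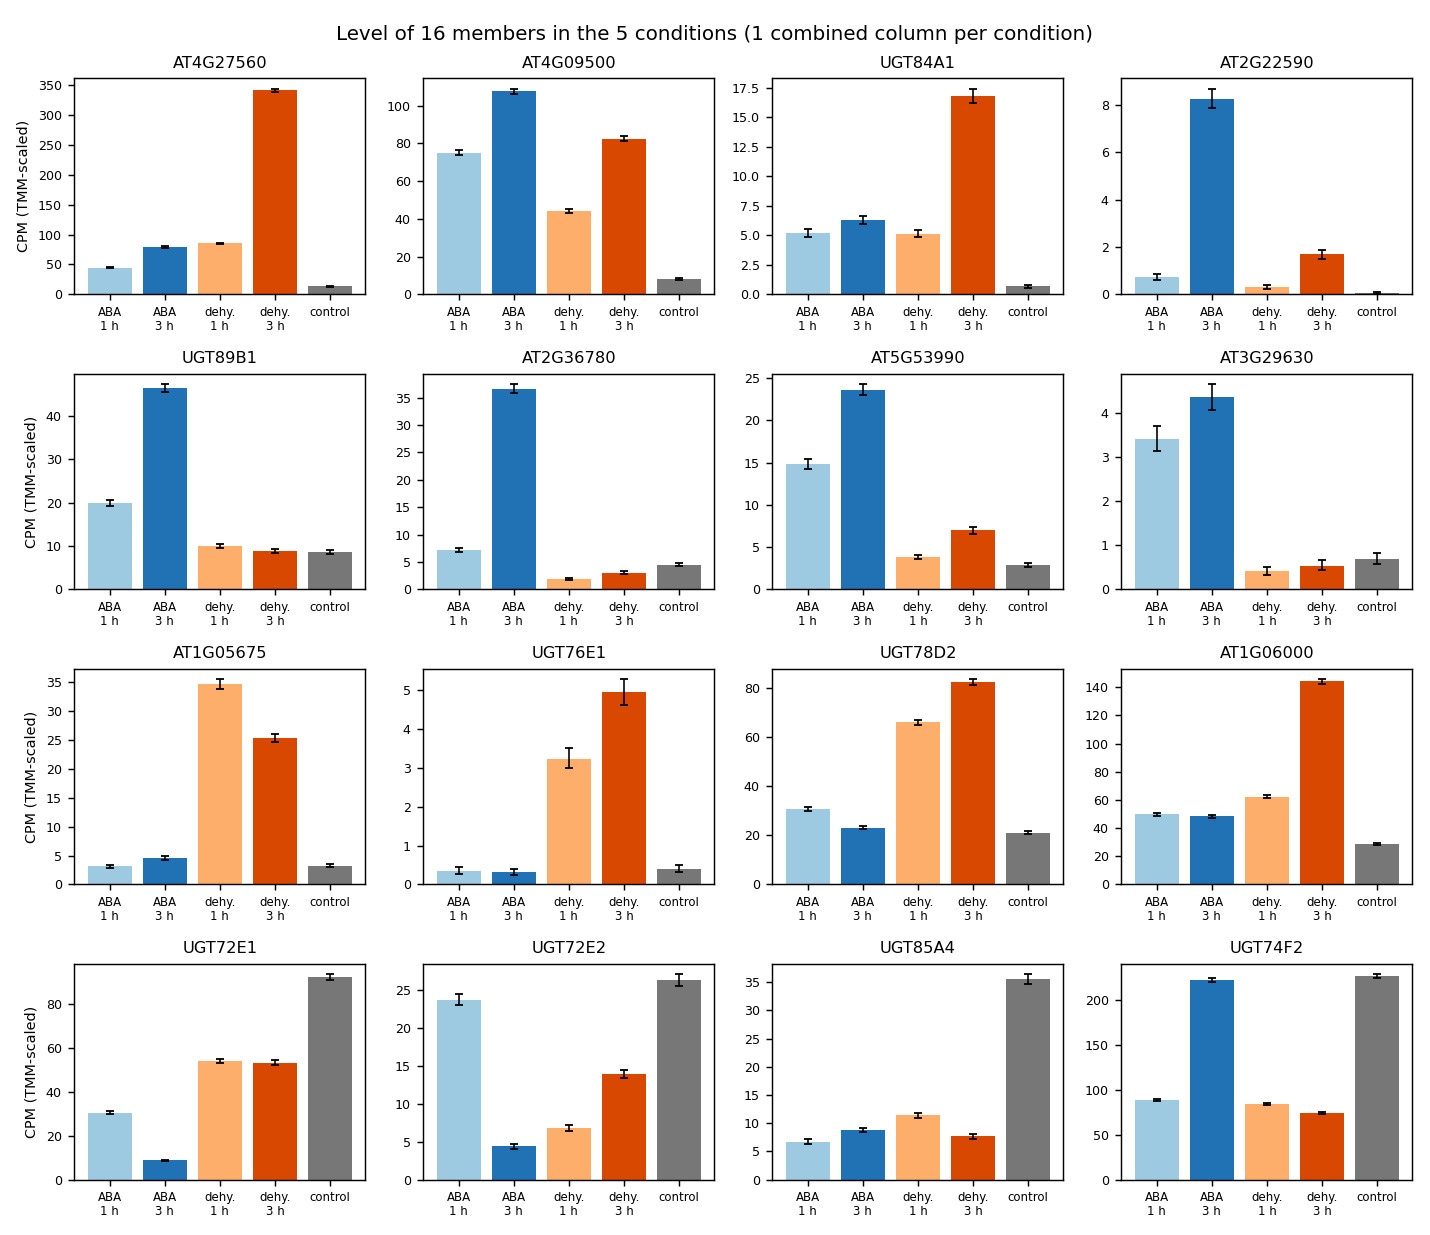
Level of 16 members in CPM (TMM-scaled, linear axis from 0) in each condition, as bars with 95% exact Poisson intervals that cover counting error only. The top row shows members higher in all 4 treatments, the second row members highest after ABA for 3 h, the third row members highest after dehydration, and the bottom row members lower in several treatments, among them UGT74F2, which is at 222 CPM after ABA for 3 h and 227 CPM in the control.

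A second group stood much higher after ABA than after dehydration at the same time. UGT89B1 had 19.9 and 46.4 CPM after ABA for 1 h and 3 h and 9.91 and 8.82 CPM after dehydration for 1 h and 3 h, against 8.54 CPM in the control. It was 5.43-fold higher after ABA for 3 h (log2 2.44, interval 2.36 to 2.52) and stayed within 1.16-fold of the control in both dehydration columns.

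AT5G53990 had 14.9 and 23.6 CPM after ABA for 1 h and 3 h and 3.84 and 6.98 CPM after dehydration for 1 h and 3 h, against 2.91 CPM in the control. AT3G29630, with 3.42 and 4.36 CPM after ABA for 1 h and 3 h and 0.411 and 0.538 CPM after dehydration for 1 h and 3 h, against 0.701 CPM in the control, was also highest after ABA for 3 h, at a lower level. The pair differed after dehydration, where AT5G53990 was 2.40-fold higher than the control at 3 h and AT3G29630 lay below the control at both times. AT3G29630 lay on both sides of the control, 6.22-fold higher after ABA for 3 h and 1.70-fold lower after dehydration for 1 h.

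AT2G36780 had 7.19 and 36.7 CPM after ABA for 1 h and 3 h and 1.91 and 3.06 CPM after dehydration for 1 h and 3 h, against 4.54 CPM in the control. It was thus 8.07-fold higher after ABA for 3 h and 2.38-fold lower after dehydration for 1 h. Its neighbour AT2G36770, 91.3% identical in coding sequence, was 3.04-fold higher and 2.01-fold lower in the same columns, and reads could have been shared between the pair. UGT85A5 was also higher after ABA for 3 h and lower after dehydration for 1 h, but in both treatments it lay below the control at 1 h and above it at 3 h. It had 3.17 and 26.0 CPM after ABA for 1 h and 3 h and 1.27 and 6.71 CPM after dehydration for 1 h and 3 h, against 4.77 CPM in the control.

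Because several of these members stood high after ABA, the 500 bases before each annotated gene start were searched on both strands for ACGTG, the core of the ABA response element bound by bZIP transcription factors. ACGTG was present for 36.5% of all 22424 table rows found in the annotation and for 52 of the 121 members (43.0%). Among members at least 2-fold higher after ABA for 3 h it was present in 16 of 26 (61.5%), beside 51.5% of the 1711 measured genes of any kind that were higher there, and in 24 of 68 members within 2-fold (35.3%). The share among those members was therefore above that of all promoters. It rested on 26 members, and the measured genes higher there, members included, also stood above all promoters. Of the 10 members with the highest ratio at ABA 3 h, 9 held it, and of the 10 with the lowest ratio, 4 did. At ABA 1 h the same counts were 7 and 6, and 6 of the 11 members lower there held it. For dehydration the counts were 8 and 4 at 3 h and 7 and 6 at 1 h. ACGTG was present in 12 of the 24 members higher after dehydration for 3 h, beside 49.1% of the 1982 measured genes higher there. Of those 24 members, 14 were also higher after ABA. The counts among the highest and lowest members therefore do not set ABA apart from dehydration. The matches of UGT85A5 and UGT89B1 lie inside the gene next upstream, which is 19 bases from the start of UGT85A5 and 7 bases from that of UGT89B1.

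The windows that follow are shown for 6 members described above with high ABA or dehydration ratios that hold a match, picked after their values were seen. AT2G22590, with the highest ratio, holds none. Each is 25 bases, 5′ to 3′ on the strand of the gene, in TAIR10.1 (RefSeq) sequence, around the ACGTG match nearest the gene start, and the capitals mark the match (CACGT is ACGTG on the other strand).
AT4G09500: ctcttttgacACGTGttcttcttgg
UGT84A1: actgagacgtACGTGgatggtaagt
AT5G53990: ttcttcatctCACGTttgactaatg
AT2G36780: tcaactaatcACGTGaatttaaata
AT4G27560: ggaccaatcgACGTGtccacgcaag
AT4G27570: ccccaatcagACGTGtctacgcaag
They lie at chr4:6017945-6017969 (plus strand) for AT4G09500, chr4:8850656-8850680 (minus strand) for UGT84A1 and chr5:21917490-21917514 (minus strand) for AT5G53990. The others lie at chr2:15419660-15419684 for AT2G36780, chr4:13761884-13761908 for AT4G27560 and chr4:13765280-13765304 for AT4G27570, all on the minus strand. The match lay 61 bases before the gene start of AT4G09500 and 149 to 290 bases before that of the other 5.

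CACGTG, the G-box, which holds ACGTG on both strands, was found for 10.2% of all rows and 11.6% of members. CCGAC, the core of the dehydration response element bound by DREB proteins, was found for 22.4% of all rows and 19.8% of members. It was found for 6 of the 24 members higher after dehydration for 3 h, beside 27.5% of the measured genes higher there. A match says that these letters stand in the window and nothing about binding.

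Another group stood high after dehydration and near the control after ABA. AT1G05675 had 34.7 and 25.4 CPM after dehydration for 1 h and 3 h, while ABA for 1 h and 3 h gave 3.14 and 4.56 CPM, against 3.25 CPM in the control. It was 10.7-fold higher after dehydration for 1 h (log2 3.42, interval 3.29 to 3.54). Its nearest relative by coding sequence (89.5% identical) is UGT74E2, which is no member by its annotation and ends 252 bases upstream on the same strand. UGT74E2 had 48.3 and 54.3 CPM after dehydration for 1 h and 3 h, against 64.0 CPM in the control, so it was not higher where AT1G05675 was. At ABA 3 h UGT74E2 had 169 CPM, 2.64-fold the control, where AT1G05675 was 1.40-fold the control.

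UGT76E1, which glucosylates hydroxyjasmonate, had 3.23 and 4.94 CPM after dehydration for 1 h and 3 h and 0.348 and 0.315 CPM after ABA for 1 h and 3 h, against 0.407 CPM in the control. The value at dehydration 3 h was 12.1-fold the control (log2 3.60, interval 3.25 to 3.97), and both ABA intervals included no change. UGT76E2, the adjacent gene with 89.9% identical coding sequence, stayed between 1.68 and 2.44 CPM in the treatments, against 1.90 CPM in the control.

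AT1G10400 was higher after dehydration and lower after ABA. It had 3.54 and 5.99 CPM after dehydration for 1 h and 3 h and 0.606 and 0.371 CPM after ABA for 1 h and 3 h, against 0.864 CPM in the control. It was 6.93-fold higher after dehydration for 3 h (log2 2.79, interval 2.55 to 3.05) and 2.33-fold lower after ABA for 3 h (log2 -1.22, interval -1.64 to -0.81). The annotation places it over AT1G10410, a gene on the same strand with 104 and 95.7 CPM after dehydration for 1 h and 3 h and 77.1 and 91.2 CPM after ABA for 1 h and 3 h, against 49.0 CPM in the control. How reads in the shared stretch were counted is not stated in the labels or files, so the levels of AT1G10400 are uncertain.

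Of the flavonoid glycosyltransferases, 3 stood highest after dehydration for 3 h. UGT78D2 adds glucose to flavonols and anthocyanidins, UGT78D1 and AT1G06000 add rhamnose to flavonols, UGT73C6 adds glucose to flavonols, and AT4G14090 adds glucose to anthocyanidins. Of these 5 measured members, 3 were higher and 1 lower after dehydration for 3 h, 2 were higher after dehydration for 1 h, 1 was higher after ABA for 3 h and 1 was lower after ABA for 1 h. The shares of all measured genes, in that order, were 10.5%, 6.49%, 7.73%, 9.12% and 5.13%. The median log2 ratio of the 5 members at dehydration 3 h was 1.20, beside -0.02 for all measured genes. UGT73B2, a flavonol 7-O-glucosyltransferase outside that list, had a log2 ratio of 0.01 there, and the median with it added was 0.74.

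AT1G06000 had 62.2 and 144 CPM after dehydration for 1 h and 3 h and 49.9 and 48.5 CPM after ABA for 1 h and 3 h, against 28.5 CPM in the control, which is 5.06-fold higher after dehydration for 3 h (log2 2.34, interval 2.30 to 2.38). UGT78D2 had 65.9 and 82.2 CPM after dehydration for 1 h and 3 h and 30.7 and 23.2 CPM after ABA for 1 h and 3 h, against 21.0 CPM in the control. UGT78D1 reached 2-fold only after dehydration for 3 h, at 83.2 CPM against 36.2 CPM in the control. For all 3, the highest value of the 5 conditions was that of dehydration 3 h.

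UGT73C6 lay below the control in every treatment, at 5.35 and 4.36 CPM after dehydration for 1 h and 3 h and 4.39 and 7.86 CPM after ABA for 1 h and 3 h, against 9.35 CPM in the control. It shares 91.0% of its coding sequence with UGT73C5, which is annotated otherwise. The anthocyanidin enzyme AT4G14090 was scarce, at 1.03 to 2.82 CPM in the treatments, against 1.33 CPM in the control, and its highest value was at ABA 3 h.

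Genes of flavonol and anthocyanin synthesis, both enzymes and their MYB regulators, were listed for comparison, 10 of 11 of them measured. Of the 10, 7 were higher and 1 lower after dehydration for 3 h (median log2 ratio 2.16), 4 higher and 1 lower after ABA for 3 h, 3 higher and 2 lower after dehydration for 1 h, and 2 higher after ABA for 1 h. PAP1, a MYB activator of anthocyanin genes, had log2 ratios of 5.02 and 6.13 at ABA 3 h and dehydration 3 h. F3H, an early enzyme of the pathway, stood at 1.86 and 3.53, and F3PH, the flavonoid 3′-hydroxylase, at -1.19 and -1.06. Beside the counts of this list, 10.5% of all measured genes were higher and 6.49% lower after dehydration for 3 h. After ABA for 3 h these shares were 9.12% and 7.79%, and after dehydration for 1 h 7.73% and 5.62%. After ABA for 1 h, 4.54% were higher.

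The enzymes of lignin precursors and sinapate held both higher and lower members. UGT72E1, UGT72E2 and UGT72E3 add glucose to coniferyl and sinapyl alcohols or aldehydes, and UGT84A2 makes sinapoylglucose. In this list of 8 measured members, which also holds UGT72B1, UGT84A1, UGT84A3 and UGT84A4, 2 were higher and 1 lower after ABA for 1 h, 4 higher and 2 lower after ABA for 3 h, 3 higher and 2 lower after dehydration for 1 h, and 3 higher with none lower after dehydration for 3 h. The higher members were of the UGT84A and UGT72B groups, and the lower members were all UGT72E genes. In the same order of treatments, 4.54%, 9.12%, 7.73% and 10.5% of all measured genes were higher and 5.13%, 7.79%, 5.62% and 6.49% lower.

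UGT72E1 had 30.6 and 8.72 CPM after ABA for 1 h and 3 h and 54.0 and 53.3 CPM after dehydration for 1 h and 3 h, against 92.3 CPM in the control. Its ratio at ABA 3 h, 10.6-fold lower (log2 -3.40, interval -3.48 to -3.33), was the lowest of any measured member over the 4 treatments. UGT72E2 had 23.7 and 4.38 CPM after ABA for 1 h and 3 h and 6.76 and 14.0 CPM after dehydration for 1 h and 3 h, against 26.4 CPM in the control. UGT72E2 was thus close to the control at ABA 1 h and 6.02-fold below it at ABA 3 h, while after dehydration the lower of its values was the one at 1 h.

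UGT72E3, at 0.744 to 1.14 CPM in the treatments, against 1.56 CPM in the control, was near the limit of what was measured. UGT84A2 had 42.5 and 55.0 CPM after ABA for 1 h and 3 h and 53.4 and 63.3 CPM after dehydration for 1 h and 3 h, against 21.5 CPM in the control, with ratios between 1.97-fold and 2.95-fold. UGT72B1, an enzyme that conjugates chlorinated foreign compounds, was highest after ABA for 3 h, at 211 CPM against 77.1 CPM in the control (2.73-fold). UGT84A4, at 4.39 to 6.92 CPM in the treatments, against 4.22 CPM in the control, never reached 2-fold.

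Of 7 measured genes of phenylpropanoid metabolism, 2 were higher and 1 lower after dehydration for 3 h, beside 10.5% and 6.49% of all measured genes. None reached 2-fold in the other 3 treatments. PAL1, which opens the pathway, and 4CL3, a coumarate ligase, had log2 ratios of 1.04 and 1.84 at dehydration 3 h. The lower gene was SNG1, which moves sinapate from its glucose ester to malate, at -1.41.

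UGT74F2, UGT75B1, UGT74D1 and UGT88A1, the 4 members with the highest FPKM in the control, stood low after dehydration and near the control after ABA for 3 h. UGT74F2, a salicylate glucosyltransferase and by FPKM the most abundant member in the control, had 88.5 and 222 CPM after ABA for 1 h and 3 h and 84.3 and 74.2 CPM after dehydration for 1 h and 3 h, against 227 CPM in the control. It was 3.06-fold lower after dehydration for 3 h (log2 -1.61, interval -1.64 to -1.58) and 1.02-fold lower after ABA for 3 h. The value at ABA 1 h, 2.56-fold lower, was close to those after dehydration.

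UGT75B1, an enzyme linked to callose at the cell plate and listed here with auxin, had 166 and 223 CPM after ABA for 1 h and 3 h and 103 and 88.9 CPM after dehydration for 1 h and 3 h, against 226 CPM in the control. UGT74D1, an auxin glucosyltransferase, had 75.6 and 150 CPM after ABA for 1 h and 3 h and 52.6 and 42.3 CPM after dehydration for 1 h and 3 h, against 125 CPM in the control. UGT88A1 had the same shape, at 96.9 and 145 CPM after ABA for 1 h and 3 h and 69.3 and 55.6 CPM after dehydration for 1 h and 3 h, against 141 CPM in the control. In each of these 4 members, UGT74F2 included, dehydration for 3 h gave the lowest value of the 5 conditions.

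AT5G49690, at a lower level, was alike in shape: 2.28 and 8.79 CPM after ABA for 1 h and 3 h and 2.29 and 2.17 CPM after dehydration for 1 h and 3 h, against 10.05 CPM in the control. AT2G18560 and AT5G05890 also lay below the control in every treatment, at 3.78 to 8.54 CPM and 5.15 to 9.70 CPM, against 15.7 and 15.8 CPM in the control. UGT73B2, named above among the flavonoid enzymes, had 171 CPM after dehydration for 1 h and 85.8 to 88.4 CPM in the other treatments, against 87.5 CPM in the control.

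Of the 5 measured members listed for salicylate and defence, 1 was lower after ABA for 1 h, 1 higher and 1 lower after dehydration for 1 h, 1 lower after dehydration for 3 h, and none reached 2-fold after ABA for 3 h. The higher one was UGT73B5, at 74.0 CPM after dehydration for 1 h, against 35.5 CPM in the control. It overlaps UGT73B4 on the same strand. Beside these counts, 5.13% of all measured genes were lower after ABA for 1 h and 6.49% lower after dehydration for 3 h. After dehydration for 1 h, 7.73% were higher and 5.62% lower. UGT76B1, which glucosylates isoleucic acid and bears on defence and senescence, stayed between 44.7 and 53.4 CPM in the treatments, against 57.6 CPM in the control.

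None of the 3 cytokinin members reached 2-fold from the control. UGT76C2, a cytokinin N-glucosyltransferase, had 11.1 and 8.18 CPM after ABA for 1 h and 3 h and 21.3 and 22.7 CPM after dehydration for 1 h and 3 h, against 12.5 CPM in the control. Its neighbour UGT76C1, of the same activity, stood higher after ABA than after dehydration, with 25.8 and 31.2 CPM after ABA for 1 h and 3 h and 16.1 and 20.8 CPM after dehydration for 1 h and 3 h, against 17.3 CPM in the control. UGT85A1, a zeatin O-glucosyltransferase, was highest after ABA for 3 h, at 71.0 CPM against 49.8 CPM in the control.

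Besides UGT76E1, the list named for jasmonate held UGT76E2, UGT76E11 and UGT76E12. Of these 4, 3 were higher after dehydration for 3 h, 2 after ABA for 3 h, 1 after dehydration for 1 h and none after ABA for 1 h. In that order, 10.5%, 9.12%, 7.73% and 4.54% of all measured genes were higher, and 4 genes are too few to compare with these shares. UGT76E12 had 12.8 and 40.4 CPM after ABA for 1 h and 3 h and 12.5 and 27.6 CPM after dehydration for 1 h and 3 h, against 10.3 CPM in the control. UGT76E11 had 45.1 and 64.8 CPM after ABA for 1 h and 3 h and 23.2 and 68.2 CPM after dehydration for 1 h and 3 h, against 29.5 CPM in the control. Both were thus late members, past 2-fold at 3 h and not at 1 h.

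UGT71B1 and HYR1, which belong to the same subfamily as the excluded UGT71B6, were both higher after dehydration for 3 h, at 70.1 and 51.8 CPM, against 24.9 and 23.9 CPM in the control. UGT71B1 has activity on hydroxylated phenolics in vitro and HYR1 glucosylates the growth inhibitor hypostatin. Of the excluded ABA enzymes, UGT71B6 was 1.11-fold and 1.78-fold the control at ABA 3 h and dehydration 3 h, and UGT71C5 0.448-fold and 1.07-fold.

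UGT87A2, which acts on flowering time, was 2.67-fold higher after ABA for 3 h, at 154 CPM against 57.4 CPM in the control, and between 1.55-fold and 1.63-fold in the other treatments. UGT80B1, a sterol glucosyltransferase, was 3.36-fold higher after ABA for 3 h, at 40.5 CPM against 12.0 CPM in the control. The other sterol enzyme, UGT80A2, kept between 34.8 and 41.9 CPM in the treatments, against 31.3 CPM in the control. UGT74B1, which makes desulfoglucosinolates, and DGD1, which makes galactolipids of plastid membranes, stayed within 1.33-fold of the control in every treatment.

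Among the other 18 glycosyltransferases, 17 were measured, and their counts lay near the shares of all measured genes given above. None was higher and 1 lower after ABA for 1 h, 2 were higher and 1 lower after ABA for 3 h, and 2 were higher after dehydration at each time. GBSS1, the granule-bound starch synthase, had 107 and 49.2 CPM after ABA for 1 h and 3 h and 98.3 and 169 CPM after dehydration for 1 h and 3 h, against 67.8 CPM in the control. TPS6, of the trehalose phosphate synthase family, was 2.49-fold higher after ABA for 3 h, and AT4G19460 was 3.20-fold higher after dehydration for 1 h.

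Set directly against ABA at the same time, dehydration differed more at 3 h than at 1 h. At 1 h, 8 of the 104 measured members were at least 2-fold higher after dehydration (beside 5.40% of measured genes) and 8 were lower (beside 3.50%). At 3 h, 19 were higher (18.3%, beside 9.15%) and 16 were lower (15.4%, beside 6.82%). These ratios do not involve the control column.

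At 3 h, the members farthest toward dehydration were AT1G10400 (16.1-fold), UGT76E1 (15.7-fold, log2 3.97, interval 3.60 to 4.37), AT5G59070 (6.23-fold) and UGT72E1 (6.11-fold). UGT72E1 is on that side because it was low after ABA, as its level after dehydration also lay below the control. AT5G59070 was low after ABA too, at 0.294 CPM at ABA 3 h and 1.83 CPM at dehydration 3 h, against 1.47 CPM in the control. The flavonoid members UGT78D2, AT1G06000 and UGT78D1 were 3.55-fold, 2.97-fold and 2.28-fold higher after dehydration than after ABA. Farthest toward ABA were AT2G36780, 12.0-fold lower after dehydration (log2 -3.58, interval -3.71 to -3.46), AT3G29630 (8.10-fold lower), UGT89B1 (5.26-fold lower) and AT2G22590 (4.90-fold lower). UGT74F2, UGT74D1, UGT75B1 and UGT88A1 were 2.99-fold, 3.55-fold, 2.51-fold and 2.60-fold lower after dehydration than after ABA.

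**Figure D4:**
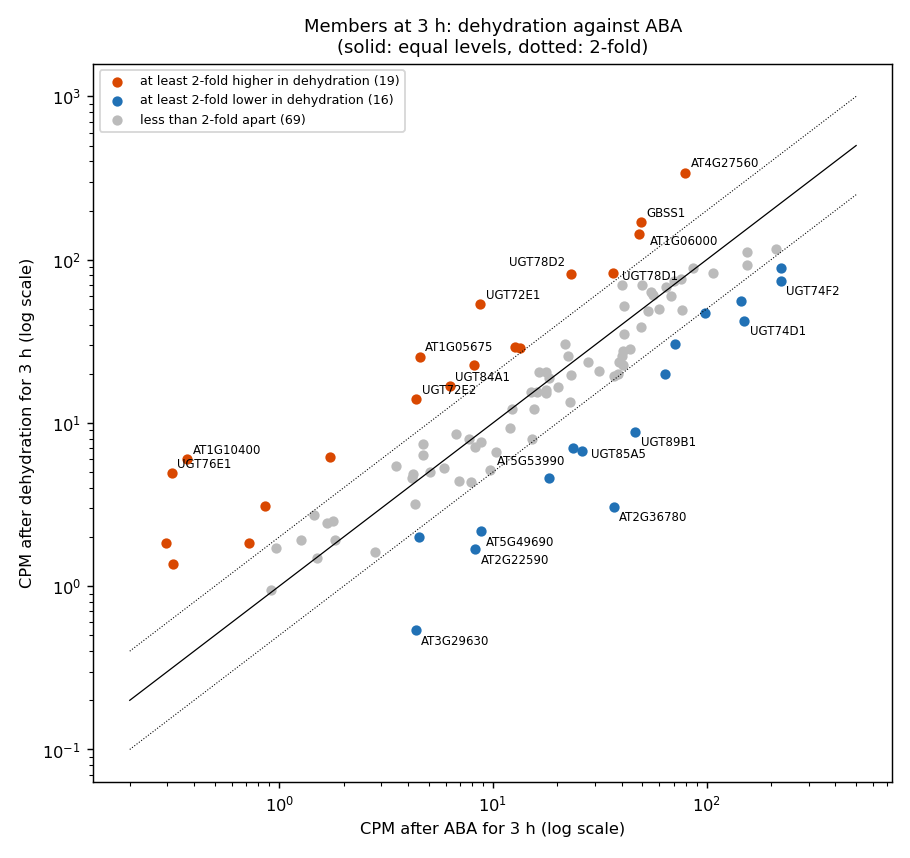
Level of each measured member after dehydration for 3 h (vertical) against its level after ABA for 3 h (horizontal), both in CPM on log axes, with the equal-level line solid and the 2-fold lines dotted. The 19 members in orange were at least 2-fold higher after dehydration, with AT4G27560 the most abundant at 341 CPM, and the 16 in blue at least 2-fold lower, with UGT74F2 at 74.2 CPM after dehydration and 222 CPM after ABA.

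Past 2-fold, time within a treatment moved members upward more often than downward, and all measured genes leaned the same way. Counting changes of any size, 61 measured members lay above and 43 below their ABA 1 h level at ABA 3 h. For dehydration, 47 lay above and 57 below their 1 h level at 3 h. Between ABA 3 h and ABA 1 h, 13 members were at least 2-fold higher at 3 h (beside 4.92% of measured genes) and 5 lower (beside 2.39%). AT2G22590 was 11.6-fold, UGT85A5 8.20-fold and AT2G36780 5.10-fold higher at 3 h, and UGT72E2 was 5.43-fold and UGT72E1 3.50-fold lower. Between dehydration 3 h and dehydration 1 h, 11 were higher at 3 h (beside 5.34%) and 1 lower (beside 1.48%), which became 9 and 3 when columns were scaled by total count alone. AT4G27560 was 4.01-fold and UGT84A1 3.27-fold higher at 3 h, and the member lower at 3 h was AT4G19460, at 4.57 CPM against 10.9 CPM at 1 h.

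UGT74F2 and UGT85A2 were low at ABA 1 h and back near the control at ABA 3 h. UGT85A2 had 76.7 CPM at ABA 3 h and 28.7 CPM at ABA 1 h, beside 81.2 CPM in the control. AT5G49690 likewise had 8.79 CPM at ABA 3 h and 2.28 CPM at ABA 1 h, beside 10.05 CPM in the control.

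Many members lie beside each other in the genome. With at most 1 other protein-coding gene between them, 59 of the 121 members fell into 20 clusters in the TAIR10.1 annotation, the largest of 7 genes around UGT76E12 on chromosome 3. Within several clusters the ratios differed widely. In the UGT85A cluster, UGT85A5 had a log2 ratio of 2.44 at ABA 3 h while UGT85A2 and UGT85A1 had -0.08 and 0.51. In the UGT73C cluster, AT2G36780 and AT2G36770 had 3.01 and 1.60 and UGT73C6 had -0.25.

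At dehydration 3 h, UGT76E1 had a log2 ratio of 3.60 and the adjacent UGT76E2 0.36, and UGT84A1, UGT84A3 and UGT84A4 had 4.63, 1.22 and 0.06. In the UGT76E12 cluster at ABA 3 h, UGT76E12 was at 1.97 and AT3G46720 at -1.46, so one cluster held a higher and a lower member. The pair AT4G27560 and AT4G27570 lay past 2-fold in the same direction in every treatment.

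**Figure D5:**
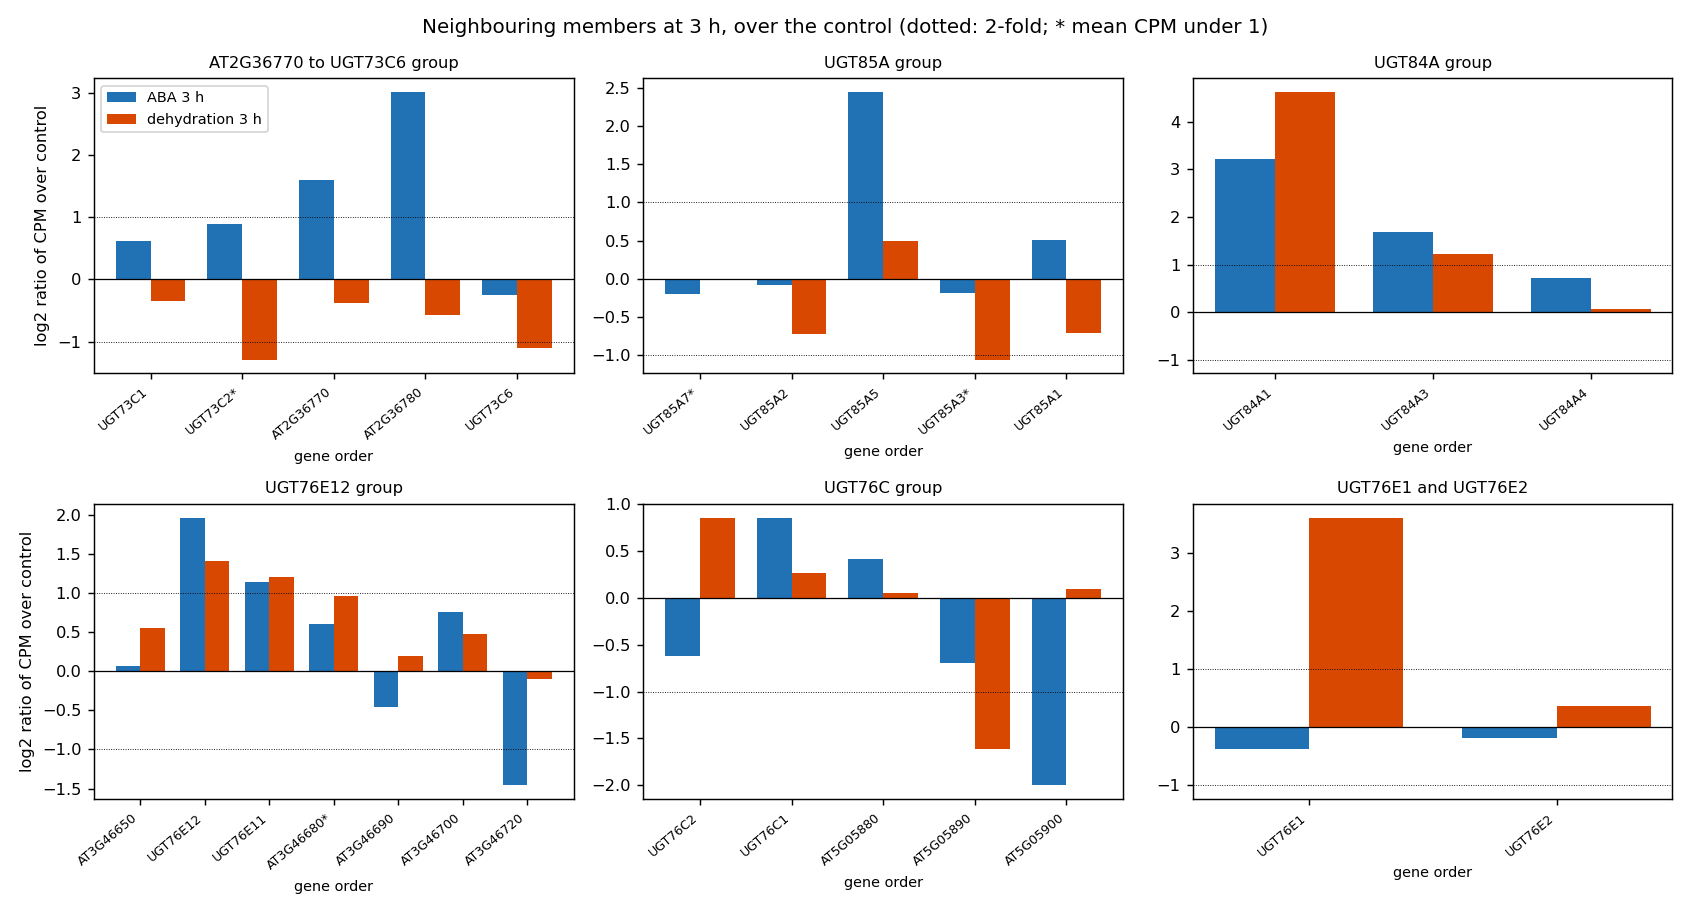
Log2 ratio of CPM over the control at 3 h for members of 6 gene clusters in genome order, ABA in blue and dehydration in orange, with the 2-fold limits dotted and members under 1 CPM starred. UGT85A5 (2.44 after ABA) and UGT76E1 (3.60 after dehydration) stand out from their neighbours, and the UGT73C panel holds 2 members past 2-fold after ABA.

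The family's summed level changed far less than its members. All 121 members together had 2846 and 3709 CPM after ABA for 1 h and 3 h and 2960 and 3341 CPM after dehydration for 1 h and 3 h, against 2896 CPM in the control. The largest sum, at ABA 3 h, was 1.28-fold the control. The 1.15-fold sum at dehydration 3 h became 1.04-fold without AT4G27560.

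In FPKM, which divides by transcript length so that genes can be compared, the leading member changed between conditions. UGT74F2 led in the control (176 FPKM, 9.13% of the members' summed FPKM) and at ABA 3 h (169 FPKM, 7.01%), UGT75B1 at ABA 1 h (116 FPKM, 6.45%) and UGT73B2 at dehydration 1 h (109 FPKM, 5.79%). At dehydration 3 h AT4G27560 led with 225 FPKM, or 10.6% of the sum, against 9.08 FPKM and 0.472% in the control. AT1G06000 and GBSS1 followed it there, at 101 and 79.6 FPKM, and neither was among the first 10 in the control.

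The donor UDP-glucose comes mainly from sucrose synthases and UDP-glucose pyrophosphorylases. Of 13 measured genes listed for the supply of UDP-sugars, 2 were higher after ABA for 1 h, 5 after ABA for 3 h, 1 after dehydration for 1 h and 3 after dehydration for 3 h, and none was lower. In the same order, 4.54%, 9.12%, 7.73% and 10.5% of all measured genes were higher. The sucrose synthases SUS1 and SUS3 had log2 ratios of 3.53 and 4.45 at ABA 3 h and 1.40 and 1.41 at dehydration 3 h. Of the pyrophosphorylases, UGP1 had 565 CPM at ABA 3 h (2.84-fold the control) and 351 CPM at dehydration 3 h (1.76-fold), against 199 CPM in the control. UGP2, at 56.5 CPM in the control, had log2 ratios of -0.30 and -0.17 there.

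Of 6 measured beta-glucosidases, enzymes that can remove the sugar again, 3 were higher after dehydration for 3 h and 2 after dehydration for 1 h, 1 was lower after ABA for 1 h, and none reached 2-fold after ABA for 3 h. Beside these counts, 10.5% and 7.73% of all measured genes were higher after dehydration for 3 h and 1 h, and 5.13% lower after ABA for 1 h. BGLU18, which releases ABA from its glucose ester, had a log2 ratio of 1.43 at dehydration 3 h and 0.57 at ABA 3 h. BGLU47 had 1.15 at dehydration 3 h, and BGLU45, known to act on monolignol glucosides, had -1.30 at ABA 1 h.

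The 17 members under 1 CPM included some that stood apart from the control at very low counts. UGT78D3, a flavonol arabinosyltransferase beside UGT78D2, had 204 reads after dehydration for 3 h, against 10 in the control. AT3G22250 had 70 and 81 reads after dehydration for 1 h and 3 h and none after ABA at either time, where a count of 0 allows up to 3 reads, against 4 reads in the control. With these members added, 28 of 121 were higher and 15 lower after ABA for 3 h, and 29 higher and 11 lower after dehydration for 3 h. The shares of all measured genes given above leave out genes under 1 CPM, so no share over all genes stands beside these counts.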

How the data were processed

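The authors' deposited tables give read counts and FPKM per gene, with 1 combined column per condition. The build was TAIR10, and the tools named were Cufflinks 2.1.1, DESeq2, Cuffdiff and TopHat2 2.0.8, per the submitters' processing notes. Neither the way the 3 replicates were combined nor the strand setting for counting is stated in the labels or files. Counts deposited by the authors were scaled to CPM with TMM factors (edgeR 4.0.16 in R 4.3.3) computed on 22186 rows kept by filterByExpr. Counts under 3 were set to 3 in ratios, and no ratio was taken where both were at or under 3. Intervals are Clopper-Pearson intervals at 95%. The ratio code was tested on simulated data. No test between conditions was possible.

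The members and gene lists were chosen with earlier results of these data known. Named members were drawn from the measured members of the role lists, the 10 with the highest mean FPKM, and the 5 highest and 5 lowest per comparison. The last were taken among those reaching 10 CPM in either column. Not all of these are described. Among those left out, UGT73B1 and AT2G36970 were 2.16-fold and 2.47-fold lower after ABA for 1 h. UGT72B3, also left out, was 2.21-fold and 2.11-fold higher after ABA and dehydration for 1 h. AT1G10400, AT2G22590, AT2G22930, AT3G22250, AT3G29630, AT3G46720, AT4G27570, AT5G59070, UGT73C7, UGT78D3 and TPS6 were named after their values were seen. Loci that neither the tables nor RefSeq name or describe were left out of the role lists.

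Coordinates and upstream sequence come from TAIR10.1 (RefSeq), in which 22424 table rows were found. Coding sequences were compared with blastn 2.17.0. Among measured members, 5 overlap another gene on the same strand and 28 on the opposite strand, UGT84A1, UGT85A4, UGT76E1, UGT75B1 and AT1G06000 among them. Without a stated strand setting, reads of such partners cannot be told apart.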

Additional observations from a re-analysis of the deposited data

Results flagged for a closer look

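AT1G10400 is listed because it lay on opposite sides of the control after ABA and after dehydration at 3 h. Its log2 ratio was -1.22 at ABA 3 h and 2.79 at dehydration 3 h. The difference was not tested, since the tables hold 1 combined column per condition, and the gene overlaps AT1G10410 on the same strand.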

How the results depend on the processing

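The 16 counts of members at least 2-fold apart were recomputed under 8 alternatives, and 115 of the 128 values stayed within 1.5 times the count reported. No called ratio of a measured member and no called list median changed sign. RLE factors, upper-quartile factors and log2(FPKM + 0.1) kept every count within that range, as did TMM factors from all rows, an alternative added after seeing the data. A minimum of 5 CPM left 81 members and gave 8 higher at ABA 1 h, 4 lower at ABA 3 h, 3 lower at ABA 3 h over ABA 1 h, 4 higher and 5 lower for dehydration 1 h over ABA 1 h, and 12 higher for dehydration 3 h over ABA 3 h, with fewer members counted by construction. With log2(FPKM + 1), whose pseudocount shrinks low genes, 4 were lower at ABA 3 h, 3 lower at ABA 3 h over ABA 1 h, 5 lower for dehydration 1 h over ABA 1 h, and 7 higher and 0 lower for dehydration 3 h over dehydration 1 h. With no filter, 9 were lower at ABA 3 h over ABA 1 h. With total counts, 3 were lower at dehydration 3 h over dehydration 1 h; there the median of all genes shifted by -0.10, and by 0.12 for dehydration 1 h over the control.

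Adding UGT73B2 to the flavonoid list, also chosen after seeing the data, moved its median log2 ratio at dehydration 3 h to 0.74.

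No paired analysis was possible because the tables give 1 combined column per condition, and leaving out each replicate in turn was not run for the same reason. Depth does not limit the abundant members, but ratios resting on few control reads, such as that of AT2G22590, have wide counting intervals, and the spread between replicates is unknown for all of them.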
